A study of Mus musculus with 10 samples.

Results

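The semaphorins, plexins and neuropilins of the mouse are a ligand and receptor family, and their RNA was described here across the nucleus types of the adult hippocampus. Members were taken by gene symbol alone: every symbol starting with Sema and a digit, every symbol starting with Plxn and a letter from a to d, and Nrp1 and Nrp2. The rule found 31 of the 24837 genes in the deposited matrix, 20 semaphorins, 9 plexins and 2 neuropilins, and every one has gene coordinates in the GRCm38 annotation used here.

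The study sequenced single nuclei from the hippocampus of 10 samples, all of 1 group. Every sample is wild-type (WT), of strain C57B/6J as the labels spell it, 4 to 7 months old and without stimulation, and 4 of the titles call the sample an RNASET2 hippocampus control. Nuclei came from frozen tissue, were stained with 7AAD, sorted, loaded at about 5000 per run on the 10x Genomics v3.1 chemistry, which reads the 3′ ends of transcripts, and sequenced to more than 50000 reads per nucleus. The matrix pools the samples, and its barcodes carry 7 suffixes, called barcode sets here, that no label ties to a sample. The data were therefore treated as 1 sample: levels are given with 95% Poisson intervals that cover counting error only, and no test between groups was possible.

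Semaphorins are guidance proteins that are either secreted (class 3) or held in the cell membrane (classes 4 to 7), and plexins are the receptors that pass their signal to the actin cytoskeleton through a GTPase-activating domain. Most secreted semaphorins do not bind plexins well on their own and use neuropilins as co-receptors together with class A plexins. The family is known in the hippocampus for steering mossy fibres and other axons during development, for limiting dendritic spines on granule and pyramidal neurons, and for guiding oligodendrocyte precursors.

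Upstream sequences are shown for 4 members, chosen after their values were seen, on which comparisons described here turn. Sema3d was led by oligodendrocyte precursor-like nuclei, Plxnb3 was highest in the oligodendrocyte lineage, Sema5a separated dentate granule from CA1 neurons, and Sema3e did so in the other direction. Each window is the 250 bases before the gene start of the RefSeq table of build GRCm38.p6, 5′ to 3′ on the gene's strand. It lies at chr5:12382916-12383165 for Sema3d, chrX:73756853-73757102 for Plxnb3, chr15:32244563-32244812 for Sema5a and chr5:14025026-14025275 for Sema3e, all on the plus strand. The GENCODE M21 gene starts used elsewhere here differ from RefSeq's: the Sema3d window ends 219 bases before the GENCODE start, the Plxnb3 and Sema5a windows run 13 and 3 bases into the GENCODE gene, and the Sema3e window ends at it. The RefSeq window of Sema5b lies mostly inside the GENCODE gene and is not shown. Capitals mark matches to the E-box CANNTG, the core letters bound by basic helix-loop-helix factors, which reads the same on both strands.
Sema3d: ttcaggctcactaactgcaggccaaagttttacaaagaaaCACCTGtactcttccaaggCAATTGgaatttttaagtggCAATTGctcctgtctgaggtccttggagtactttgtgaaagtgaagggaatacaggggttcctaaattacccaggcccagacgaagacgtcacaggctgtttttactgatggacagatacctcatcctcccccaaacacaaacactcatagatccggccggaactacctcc
Plxnb3: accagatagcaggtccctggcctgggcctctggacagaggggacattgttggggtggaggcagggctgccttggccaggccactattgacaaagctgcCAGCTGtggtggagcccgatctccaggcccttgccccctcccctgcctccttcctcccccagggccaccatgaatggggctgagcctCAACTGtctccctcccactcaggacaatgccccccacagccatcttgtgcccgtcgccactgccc
Sema5a: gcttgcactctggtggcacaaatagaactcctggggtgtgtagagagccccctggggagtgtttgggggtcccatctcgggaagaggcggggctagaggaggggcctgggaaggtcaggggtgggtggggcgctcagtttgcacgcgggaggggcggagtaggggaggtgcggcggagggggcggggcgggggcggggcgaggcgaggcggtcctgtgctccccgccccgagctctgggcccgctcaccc
Sema3e: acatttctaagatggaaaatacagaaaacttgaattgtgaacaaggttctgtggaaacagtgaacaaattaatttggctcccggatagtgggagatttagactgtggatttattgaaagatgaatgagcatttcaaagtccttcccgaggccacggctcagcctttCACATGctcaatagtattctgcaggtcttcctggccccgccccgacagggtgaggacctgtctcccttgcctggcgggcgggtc
The Sema3d window has a GC content of 46.8% with 4 CpG dinucleotides and 3 E-boxes. The Sema5a window, at a GC content of 72.0%, holds 5 matches to the GC box GGGCGG or its complement and no E-box. The Plxnb3 window holds 2 E-boxes and the Sema3e window 1. The table held windows for 26 of the 31 members, 37 in all since 8 members have several annotated starts, and none for Plxna1, Plxna4, Sema3b, Sema3f or Sema6a. Of the 37 member windows, 19 (51.4%) held an E-box against 66.2% of all 32851 windows in the table. The GC box was found in 27 member windows (73.0%) against 32.7% of all windows, the CCAAT letters in 7 (18.9%) against 33.8%, the SOX core ACAAAG in 5 (13.5%) against 16.5%, and TATAAA in none against 12.4%, each on either strand. Member windows were richer in GC than the table, with a median of 64.0% against 52.4%. A match is a description of letters, and reads from transcript 3′ ends do not show which start was used.

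Several members are neighbours in the genome. Sema3a, Sema3c, Sema3d and Sema3e lie within 5.35 Mb of chromosome 5 (12383385 to 17730268), and Sema3b and Sema3f within 0.113 Mb of chromosome 9 (107597674 to 107710475). Member genes span 9.71 to 578 kb with a median of 40.2 kb, and over the 31 genes longer genes had larger UMI totals (Pearson r of 0.785 on log scales, Spearman rho of 0.811). All 31 points come from the same libraries, so UMI totals are given as the depth behind each member and not as levels to rank. Nrp1 overlaps the microRNA gene Mir1903, Plxnb2 overlaps Mir7118 and Sema4a overlaps Mir7011 on the same strand, and Sema4d overlaps Gm23566 on the other strand. UMIs of these 4 members could include reads from the overlapping gene.

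The matrix held 15661 barcodes and 101300889 UMIs (unique molecular identifiers, 1 per captured RNA molecule), between 1305838 and 26207554 per barcode set. Of 15560 barcodes with at least 500 UMIs, 15247 were kept as nuclei, with medians of 1086.5 to 8041 UMIs per set. They formed 40 clusters, built without any member gene, and all but 8 of them, which hold 1859 nuclei, were named "X-like" from marker genes. The barcode sets stand apart: set 6 gave 1 named non-neuronal nucleus (astrocyte-like), set 7 gave no excitatory-like or inhibitory-like neuron, set 1 gave 701 of the 721 nuclei of unnamed cluster 4 (led by Baiap3, Resp18 and Scg2), and several clusters drew most of their nuclei from only 1 to 3 of the sets. Sets shared at most 3 barcode sequences per pair. Transcripts typical of a nucleus type were also seen in other types after each nucleus was thinned to 1000 UMIs. The glutamate transporter transcript Slc17a7 was seen in 21.8% of dentate granule-like nuclei and in 3.06% of oligodendrocyte-like nuclei. The myelin transcript Mbp was seen in 98.8% of oligodendrocyte-like and 9.53% of dentate granule-like nuclei. Whether such UMIs come from free RNA, mixed nuclei or doublets was not tested. On the scale of UMIs per 1000000 UMIs of the class (CPM) the Mbp level was 5447 CPM in oligodendrocyte-like and 102 CPM in dentate granule-like nuclei, so a low CPM beside a far higher one in another type is not read as expression.

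The depth behind the members was uneven. The members held 271200 UMIs in all, from 84457 for Plxna4, seen in 68.3% of nuclei, 41986 for Sema6d (53.1%) and 33358 for Nrp1 (51.8%) down to under 20 for the sparsest members. Of the 31 members, 29 had at least 200 UMIs; Sema3b (17 UMIs) and Sema3g (19 UMIs) were near the limit of detection and are not described further.

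**Figure D1:**
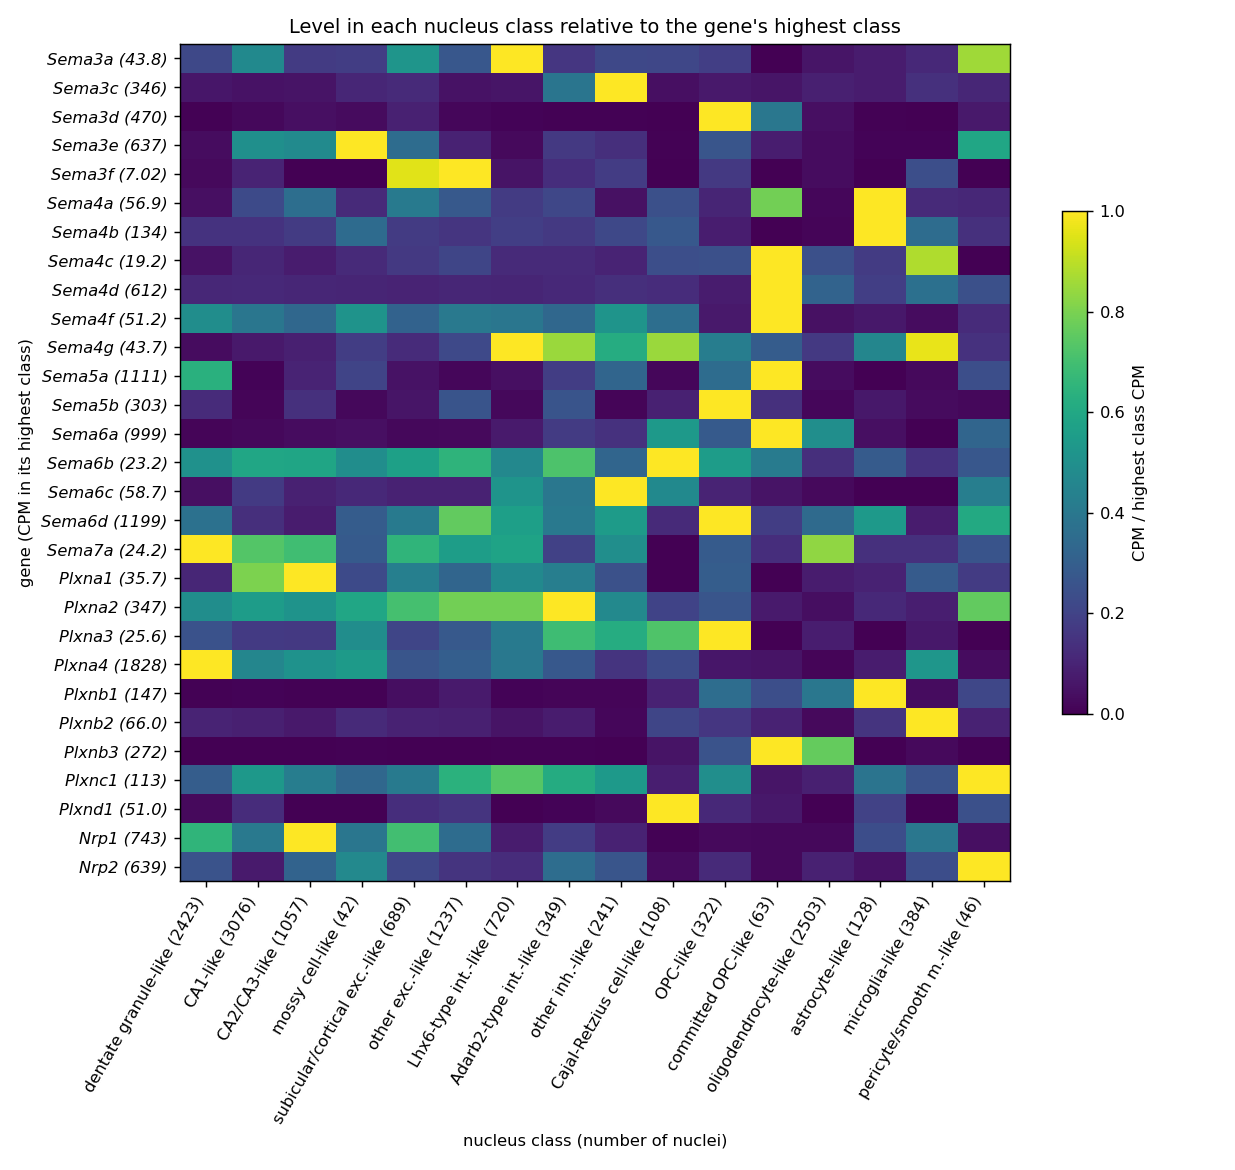
Level of each member (vertical axis, with the CPM of its highest class) in each marker-named nucleus class (horizontal axis, with the number of nuclei), as a share of the member's highest class from 0 to 1. Oligodendrocyte precursor-like nuclei hold the highest level of Sema3d (470 CPM), Sema5b (303 CPM) and Sema6d (1199 CPM), and dentate granule-like nuclei the highest of Plxna4 (1828 CPM).

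The lead of 1 class over the next was counted over class averages. Among classes with at least 100 nuclei, 5 of 29 members stood at least 3-fold above the next class: Sema3d (11.0-fold, precursor-like), Plxnd1 (5.07-fold, Cajal-Retzius-like, on 11 UMIs), Plxnb2 (4.75-fold, microglia-like), Sema5b (3.83-fold, precursor-like) and Sema4c (3.63-fold, microglia-like, on 10 UMIs). The same held for 7.00% of the 11172 genes, members included, that were kept out of the clustering and had at least 200 UMIs. Leaving out barcode set 2 lowered the count to 3. The lead of Sema5b holds for class averages only, since excitatory cluster 20, averaged there with clusters 6 and 19, held 356 CPM (330 to 384) against 303 CPM (267 to 342) in precursor-like nuclei. For 7 of 29 members (Sema6d, Plxnb3, Sema3d, Sema3c, Plxnd1, Sema5a and Sema5b) every barcode set of the highest class lay above every set of every other class, among classes with 20 nuclei in at least 2 sets, against 9.84% of those genes. This too holds for classes and not for clusters. Sets of cluster 15 for Sema6d and of cluster 20 for Sema5b reached the precursor-like sets. The committed precursor-like class, too small for this rule, held more Sema5a and Plxnb3 than the classes counted as highest.

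Among the secreted class 3 ligands, Sema3d was led by precursors. Sema3d reached 470 CPM (425 to 518) in the 322 oligodendrocyte precursor-like nuclei, with a lowest, median and highest barcode set of 361, 411 and 652 CPM. These nuclei held 846 CPM of the precursor marker Pdgfra, against 144 CPM in pericyte- or smooth muscle-like nuclei and at most 4.63 CPM in all other classes. At 1000 UMIs per nucleus Sema3d was seen in 35.2% of precursor-like and 1.63% of oligodendrocyte-like nuclei. The 63 committed precursor-like nuclei, the stage between precursors and myelinating cells, held 186 CPM (141 to 240), and subicular or cortical excitatory-like nuclei held 42.6 CPM, and no set with 20 nuclei of any other class reached the precursor-like sets.

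Sema3e, which binds Plxnd1 directly without a neuropilin, was high in pyramidal-type and mossy cell-like nuclei. CA1-like nuclei held 317 CPM of Sema3e (310 to 325), with sets at 280, 316 and 421 CPM, and CA2/CA3-like nuclei held 306 CPM (296 to 316), with sets at 263, 288 and 334 CPM. The sets of these classes overlap. The 42 mossy cell-like nuclei, excitatory neurons of the dentate hilus, had the highest level, 637 CPM (585 to 692), with no set holding 20 of them. Dentate granule-like nuclei held 20.9 CPM, with sets from 4.49 to 25.8 CPM, below every set of CA1-like and CA2/CA3-like nuclei. Precursor-like nuclei held 168 CPM of the same ligand.

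Sema3c, a ligand that can use either neuropilin, was highest in inhibitory neurons. Its level was 346 CPM (318 to 376) in an inhibitory cluster of 241 nuclei, with Hapln1 and Lamp5 among its leading genes, that no finer marker list named, with sets at 266, 335 and 413 CPM. Adarb2-type interneuron-like nuclei held 135 CPM, with sets from 90.8 to 191 CPM, and Lhx6-type interneuron-like nuclei 19.1 CPM. Sema3a, the founding collapsin that uses Nrp1, was highest in Lhx6-type nuclei at 43.8 CPM (38.4 to 49.9), with sets at 34.8, 45.7 and 59.9 CPM, and stood at 20.8 CPM in CA1-like nuclei, where the highest set was 23.7 CPM. Sema3f, the main ligand of Nrp2, was sparse in the named classes. Among those with at least 100 nuclei, its highest levels were 7.02 CPM (63 UMIs) in the excitatory clusters that no finer list named and 6.70 CPM (34 UMIs) in subicular or cortical-like nuclei. Of its 221 UMIs, 122 lay in excitatory and inhibitory classes and 3 in non-neuronal classes. The rest lay in Cajal-Retzius-like nuclei or in the unnamed clusters, which entered no class.

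The class 4 ligands are membrane proteins that act mostly on class B plexins. Sema4d, the ligand of Plxnb1, had 612 CPM (528 to 705) in committed precursor-like nuclei, 225 CPM (189 to 267) in microglia-like, 194 CPM (181 to 207) in oligodendrocyte-like and 46.6 CPM in precursor-like nuclei. Its microglia-like sets ran from 59.1 to 383 CPM and its oligodendrocyte-like sets from 185 to 234 CPM, so these classes overlap. Sema4b was highest in the 128 astrocyte-like nuclei at 134 CPM (95.7 to 182, 40 UMIs), as was Sema4a at 56.9 CPM (33.2 to 91.1, 17 UMIs); barcode set 1 gave 70 of those nuclei and was the only set with 20 of them. Sema4c, a ligand of Plxnb2, rested on 6 UMIs in committed precursor-like nuclei (19.2 CPM, 7.05 to 41.8) and 10 UMIs in microglia-like nuclei (16.9 CPM, 8.12 to 31.1). Sema4g was highest in Lhx6-type nuclei at 43.7 CPM (38.2 to 49.7), with microglia-like nuclei at 42.3 CPM (27.4 to 62.5), and these intervals overlap. Sema4f reached 51.2 CPM in committed precursor-like nuclei on 16 UMIs and 20.7 to 26.5 CPM in several neuron classes.

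Class 5 semaphorins carry thrombospondin repeats, and both members were strongly unequal between nucleus types. Sema5a, a ligand of Plxnb3, held 707 CPM (694 to 720) in dentate granule-like nuclei, with sets at 550, 649 and 810 CPM. CA1-like nuclei held 9.43 CPM (8.20 to 10.8), with sets at 1.81, 3.42 and 19.2 CPM. At 1000 UMIs per nucleus Sema5a was seen in 49.7% of dentate granule-like and 0.553% of CA1-like nuclei. Whether the CA1-like UMIs are expression or free RNA was not tested, and folds against that level carry this limit. The committed precursor-like cluster held 1111 CPM (997 to 1234), the precursor-like nuclei 391 CPM (350 to 435) and the Hapln1-led inhibitory cluster 364 CPM (335 to 395). Sema5b held 303 CPM (267 to 342) in precursor-like nuclei, with sets at 272, 306 and 361 CPM, and 79.0 CPM both in the excitatory clusters without a finer name, where the highest set was 161 CPM, and in Adarb2-type nuclei, where it was 128 CPM.

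Class 6 semaphorins are membrane ligands of class A plexins and can also signal backwards into the cell that carries them. Sema6d was high in many classes and highest in precursor-like nuclei at 1199 CPM (1127 to 1274), with sets at 1023, 1210 and 1414 CPM, and lowest in CA2/CA3-like nuclei at 90.8 CPM. Sema6a, a ligand of Plxna2 and Plxna4, followed the oligodendrocyte lineage: 999 CPM (891 to 1116) in committed precursor-like, 494 CPM (474 to 515) in oligodendrocyte-like and 283 CPM (248 to 321) in precursor-like nuclei. The oligodendrocyte-like sets lay at 332, 540 and 664 CPM and the precursor-like sets between 247 and 400 CPM, so they overlap. Outside glia, Sema6a reached 542 CPM (448 to 650) in the 108 Cajal-Retzius-like nuclei, reelin-secreting neurons of the hippocampal surface. Barcode set 2, where these nuclei held 28.2 CPM of the myelin transcript Mbp, gave 635 CPM of Sema6a, and set 7, where they held 1273 CPM of Mbp, gave 530 CPM. Sema6c was highest in the Hapln1-led inhibitory cluster at 58.7 CPM (47.4 to 71.9) and Sema6b stayed between 3.11 and 23.2 CPM in all classes. The single class 7 member, Sema7a, a lipid-anchored ligand of Plxnc1, was highest in dentate granule-like nuclei at 24.2 CPM (21.9 to 26.7), with oligodendrocyte-like nuclei at 20.2 CPM (16.3 to 24.8).

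**Figure D2:**
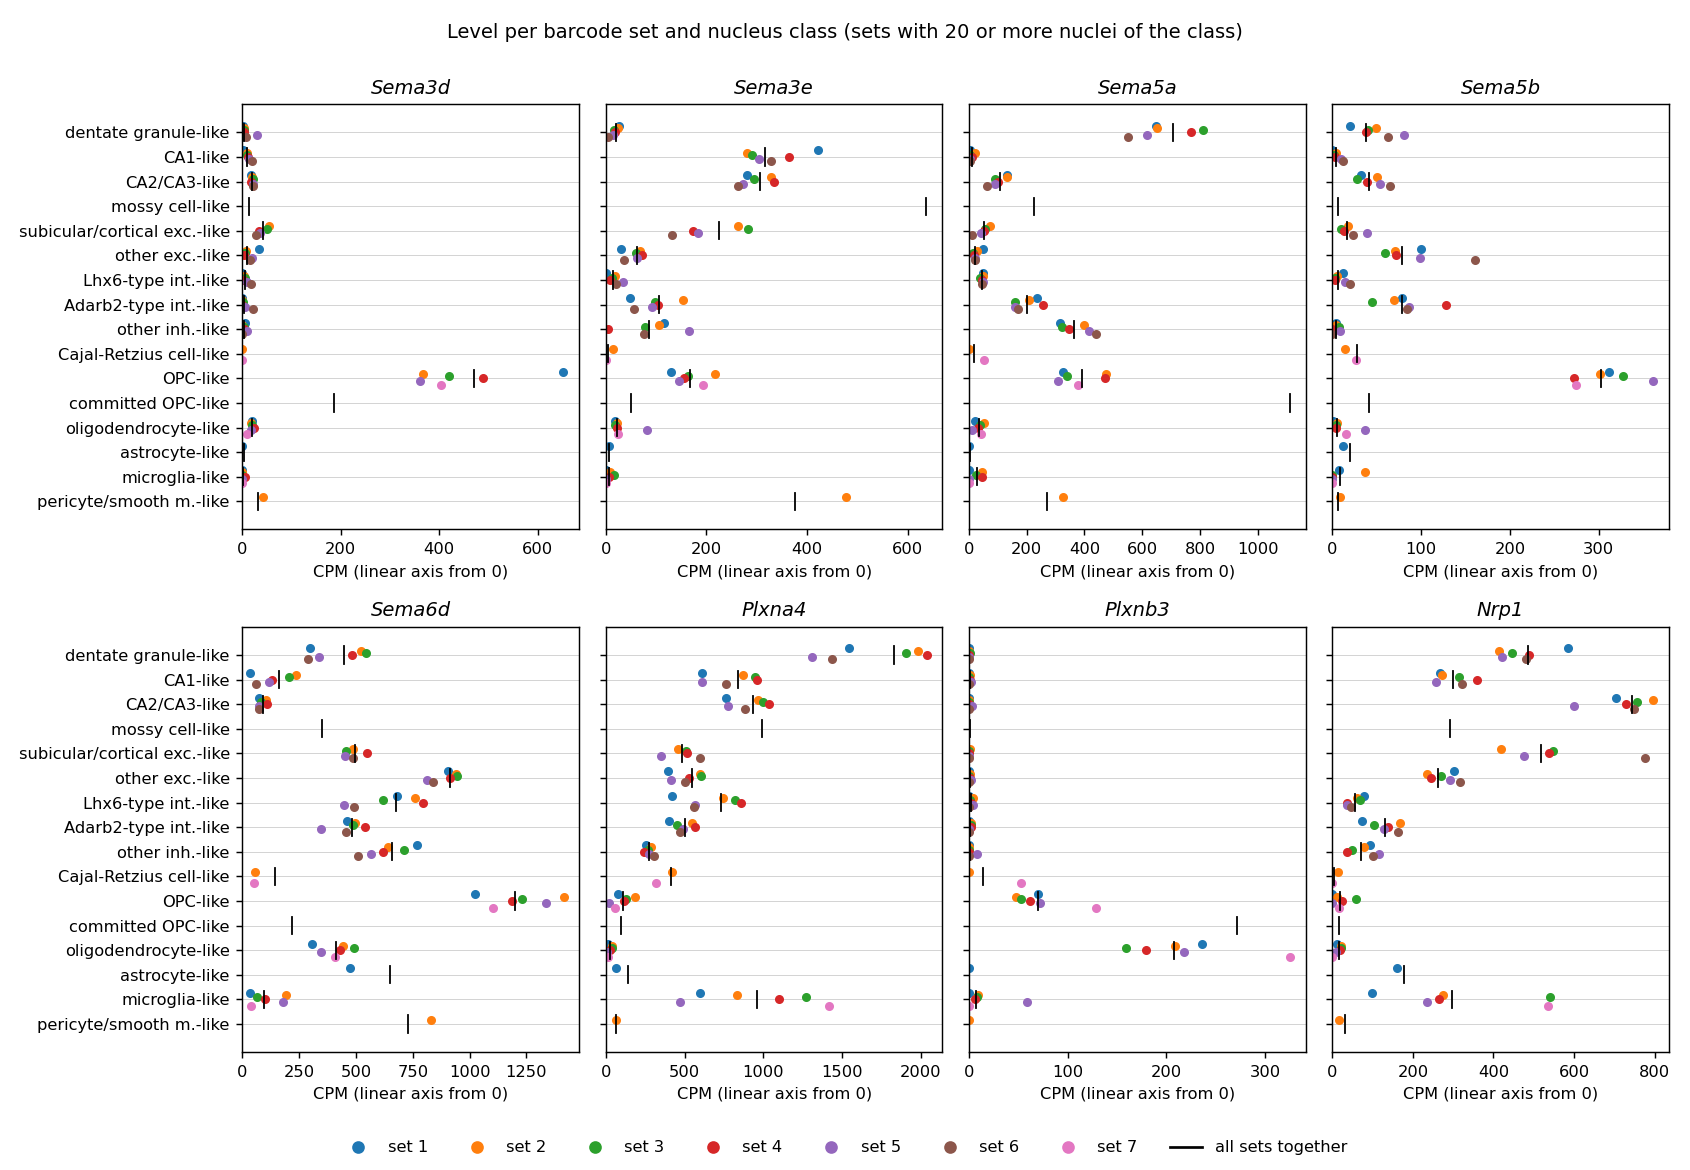
Level in CPM (linear horizontal axis) of 8 members in each nucleus class (vertical axis), with 1 coloured point for each barcode set with at least 20 nuclei of the class and a black line for all sets together. The Sema5a points of dentate granule-like nuclei (550 to 810 CPM) lie above all points of CA1-like nuclei (1.81 to 19.2 CPM).

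Among the receptors, Plxna4, which serves Sema3a and the class 6 ligands, was highest in dentate granule-like nuclei at 1828 CPM (1807 to 1848), with sets at 1310, 1724 and 2035 CPM. CA2/CA3-like nuclei held 934 CPM and CA1-like nuclei 838 CPM. Microglia-like nuclei held 962 CPM (884 to 1044), with sets at 473, 966 and 1417 CPM, and 53.0% of them had a Plxna4 UMI at 1000 UMIs per nucleus. Oligodendrocyte-like nuclei held 28.4 CPM of Plxna4, and 2.91% of them had a UMI at that depth. Plxna2, a receptor of Sema6a, was highest in Adarb2-type nuclei at 347 CPM (323 to 373) and stood at 12.9 CPM in oligodendrocyte-like nuclei. Plxna1 was highest in CA2/CA3-like nuclei at 35.7 CPM (32.4 to 39.2) and Plxna3 in precursor-like nuclei at 25.6 CPM on 22 UMIs.

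The class B plexins were highest in glia-like classes. Plxnb3 held 272 CPM (217 to 337) in committed precursor-like, 208 CPM (195 to 221) in oligodendrocyte-like and 69.8 CPM (53.3 to 89.9) in precursor-like nuclei, against 0.425 CPM in dentate granule-like and 0.708 CPM in CA1-like nuclei. Its oligodendrocyte-like sets lay at 159, 214 and 325 CPM and the precursor-like sets between 48.1 and 129 CPM, so they do not overlap. Plxnb1, the receptor of Sema4d, was highest in astrocyte-like nuclei at 147 CPM (107 to 198, 44 UMIs) and stood at 58.2 CPM in oligodendrocyte-like nuclei. Plxnb2 was highest in microglia-like nuclei at 66.0 CPM (47.0 to 90.3) on 39 UMIs, with sets from 27.5 to 230 CPM.

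Plxnc1, the receptor of Sema7a, was spread over neurons, with 83.2 CPM (75.6 to 91.3) in Lhx6-type nuclei and 72.1 CPM in the excitatory clusters without a finer name. Plxnd1, the receptor of Sema3e, was sparse: 51.0 CPM (25.4 to 91.2) in Cajal-Retzius-like nuclei came from 11 UMIs, and the next class with at least 100 nuclei held 10.0 CPM, from 3 UMIs in astrocyte-like nuclei. Nrp1, the co-receptor of Sema3a that also binds vascular endothelial growth factor, was highest in CA2/CA3-like nuclei at 743 CPM (728 to 758), with sets at 600, 740 and 796 CPM. Subicular or cortical-like nuclei held 517 CPM, dentate granule-like 485 CPM, CA1-like 299 CPM and microglia-like nuclei 296 CPM (254 to 344), where the sets ran from 99.0 to 541 CPM. The highest subicular or cortical-like set, 777 CPM, overlaps the CA2/CA3-like sets.

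Nrp2, the co-receptor of Sema3f, held 228 CPM (208 to 249) in Adarb2-type and 203 CPM (195 to 211) in CA2/CA3-like nuclei, whose sets overlap (165 to 272 and 182 to 231 CPM). A pair of small classes was higher, 302 CPM (267 to 341) in mossy cell-like nuclei and 639 CPM (521 to 776) in 46 pericyte- or smooth muscle-like nuclei.

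**Figure D3:**
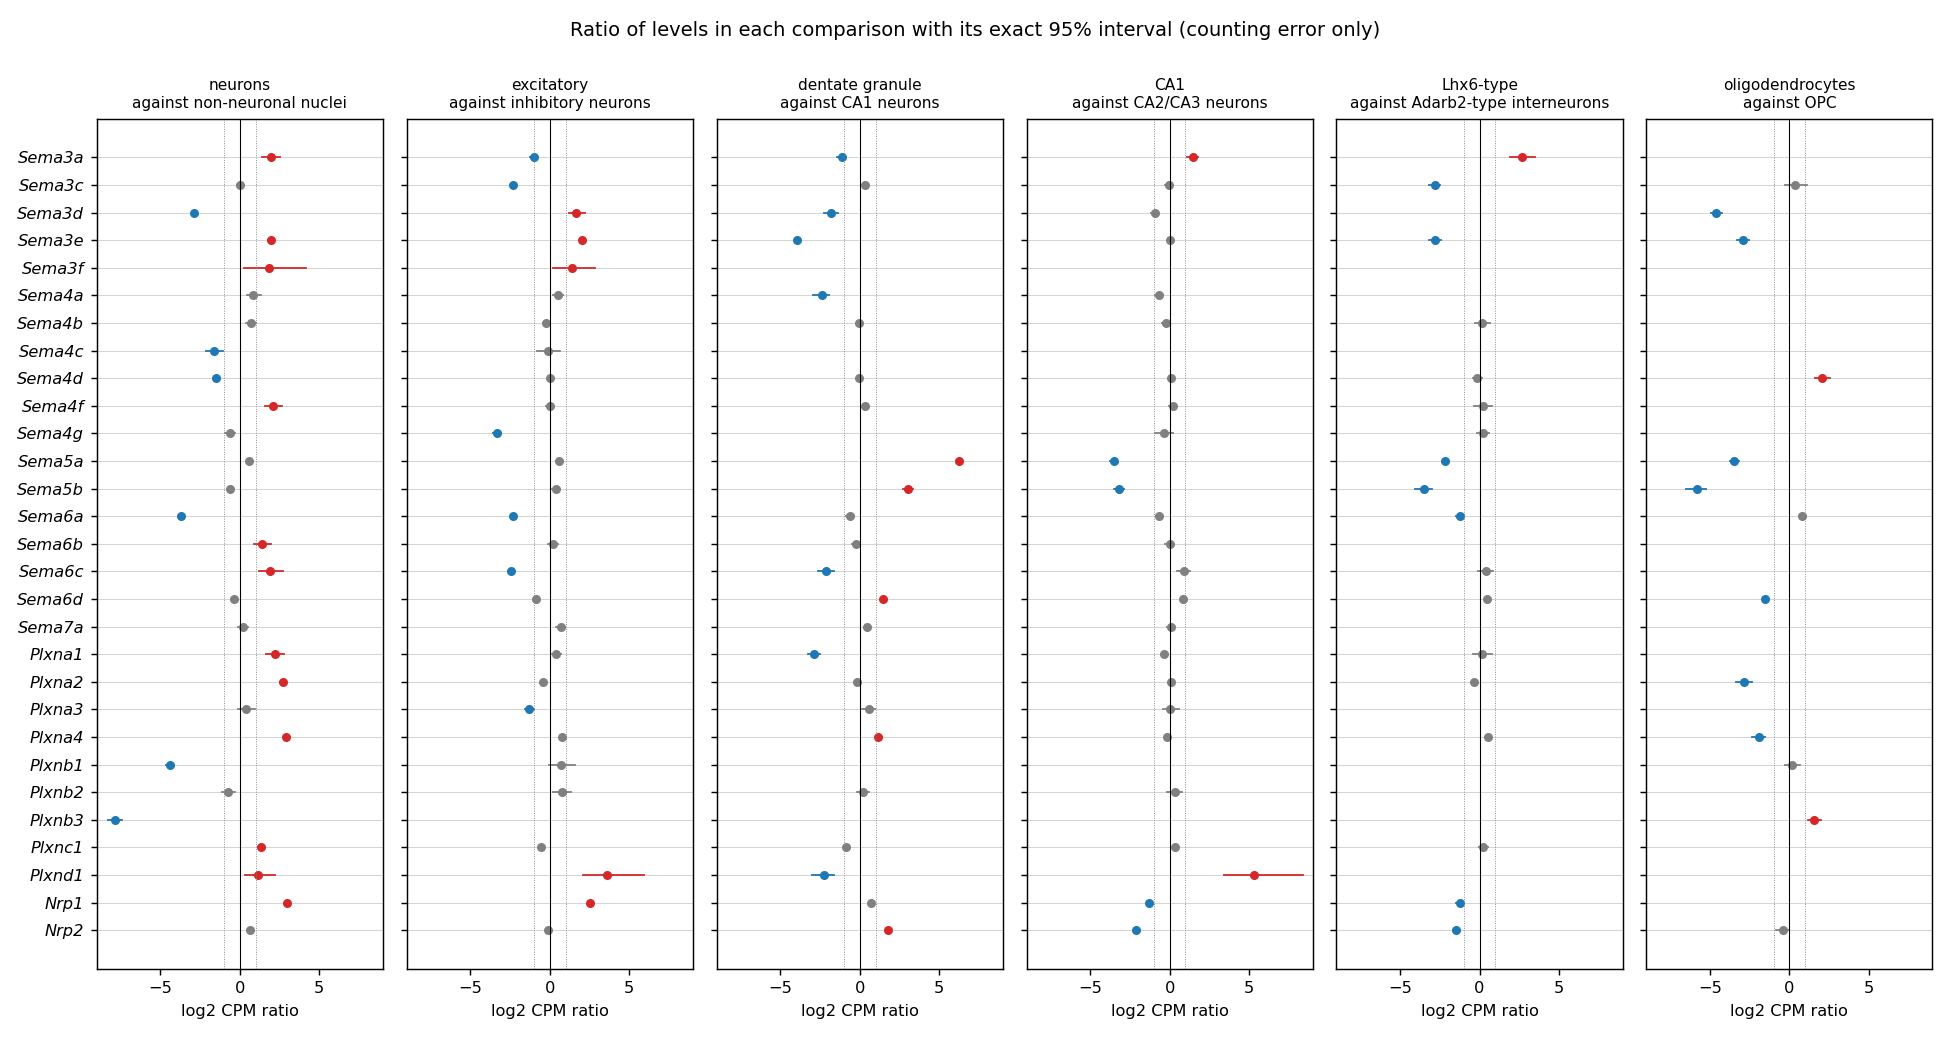
Log2 ratio of CPM (horizontal axis) in each of 6 comparisons for every member with 100 or more UMIs in both sides together (vertical axis), with 95% intervals of counting error. Sema5a has the largest ratio of dentate granule-like to CA1-like nuclei (75.0) and Plxnb3 is farthest below 0 in neurons (229-fold lower).

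Neurons and non-neuronal nuclei were at least 2-fold apart in 18 of 29 members, with 3 class A plexins and Nrp1 on the neuronal side and Plxnb1 and Plxnb3 on the other. In 9834 neurons against 3446 non-neuronal nuclei, 29 members had 100 or more UMIs in both sides together, and 12 of these were higher by 2-fold or more and 6 lower by 2-fold or more, where 19.9% and 15.8% of the genes kept out of the clustering passed these folds. Oligodendrocyte-like nuclei make up 2503 of the 3446 non-neuronal nuclei and weigh most in the pooled level, but other classes differ from them. Microglia-like nuclei alone held 962 CPM of Plxna4 and 296 CPM of Nrp1. Of the 556 non-neuronal UMIs of Sema3d, 404 came from precursor-like and 87 from oligodendrocyte-like nuclei. The median log2 ratio was 0.65 over the members and -0.15 over those genes. The mean neuron held 3.92 times the UMIs of the mean non-neuronal nucleus, so on the scale of mean UMIs per nucleus 23 members were higher and 3 lower. No share of other genes was computed on that scale, so these counts are not read as a trait of the members. The receptors on the neuronal side were Nrp1 (396 against 49.5 CPM, 7.99-fold, 7.17 to 8.93), Plxna4 (984 against 130 CPM, 7.58-fold), Plxna2 (6.46-fold), Plxna1 (4.54-fold), Plxnc1 (2.56-fold) and Plxnd1 (2.24-fold, 1.23 to 4.54). The ligands on that side were Sema4f (4.34-fold), Sema3a (3.86-fold), Sema3e (3.83-fold), Sema6c (3.76-fold), Sema6b (2.68-fold) and Sema3f, whose ratio of 3.63 (1.21 to 17.8) rests on 3 non-neuronal UMIs. Not every neuron class was above the non-neuronal 48.5 CPM of Sema3e. Dentate granule-like and Lhx6-type nuclei held 20.9 and 15.3 CPM, and CA1-like and CA2/CA3-like nuclei 317 and 306 CPM. Among non-neuronal classes, precursor-like nuclei held 168 CPM.

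Plxnb3 was 229-fold lower in neurons (0.704 against 161 CPM, 174 to 308), Plxnb1 21.3-fold (17.8 to 25.4), Sema6a 13.2-fold (12.5 to 14.0) and Sema3d 7.26-fold lower (6.51 to 8.08). For Sema3d, oligodendrocyte-like nuclei held 19.3 CPM and precursor-like nuclei 470 CPM, against 11.4 CPM in neurons. Sema4c was 3.05-fold and Sema4d 2.82-fold lower in neurons in CPM, but per nucleus both were higher in neurons, by 0.36 and 0.47 on the log2 scale. Each of the 18 had the same direction in every one of 5 barcode sets, except Sema3f in 4 of 5. When each nucleus was classed by its own marker score, 9 rather than 12 members were higher: Sema3f and Plxnd1 were 1.53-fold and Sema6b 1.84-fold higher. Under that score Plxna4 was 2.19-fold, Plxna2 2.66-fold and Nrp1 2.97-fold higher, and over all alternatives in CPM Plxnb3 was 54.9-fold to 276-fold and Sema6a 8.57-fold to 14.0-fold lower, and Sema3f 1.53-fold to 9.99-fold and Sema3a 2.17-fold to 6.73-fold higher.

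Excitatory and inhibitory neurons were at least 2-fold apart in 8 ligands and 3 receptors or co-receptors. Among 28 members in 8524 excitatory against 1310 inhibitory neurons, 5 were higher by 2-fold or more and 6 lower, against 9.20% and 6.73% of the genes kept out of the clustering. The excitatory side had Nrp1 (439 against 76.7 CPM, 5.73-fold, 5.31 to 6.19), Sema3e (204 against 49.1 CPM, 4.16-fold) and Sema3d (3.20-fold), in 6 of 6 sets each. Dentate granule-like nuclei did not share this for Sema3e and Sema3d. They held 20.9 and 2.98 CPM, below the 49.1 and 3.88 CPM of inhibitory neurons, while CA1-like nuclei held 317 and 10.3 CPM. Nrp1 was above the inhibitory level in dentate granule-like, CA1-like and CA2/CA3-like nuclei alike. Over the alternatives Nrp1 was 3.20-fold to 6.32-fold and Sema3d 1.65-fold to 4.32-fold higher, the lowest values under each nucleus's own marker score. Plxnd1 was 12.4-fold higher (4.20 to 60.5) on 3 inhibitory UMIs, from 3.07-fold after thinning to 30.1-fold without barcode set 4. CA2/CA3-like nuclei held 0.162 CPM of Plxnd1 on 2 UMIs, against 0.332 CPM in inhibitory neurons and 6.46 CPM in CA1-like nuclei. Sema3f was 2.63-fold higher on 6 inhibitory UMIs, but its direction turned under 4 other ways of keeping or naming nuclei, and without set 4 it was 6.19-fold. The inhibitory side had Sema4g (39.2 against 3.94 CPM, 9.96-fold lower in excitatory neurons, 8.47 to 11.7), Sema6c (5.42-fold), Sema3c (5.05-fold), Sema6a (5.01-fold), Plxna3 (2.43-fold) and Sema3a (2.03-fold), in 6 of 6 sets each. Not every inhibitory class shared this. Sema3c held 346 CPM in the Hapln1-led cluster and 135 CPM in Adarb2-type nuclei, but 19.1 CPM in Lhx6-type nuclei against 20.6 CPM in excitatory neurons. Sema3a held 43.8 CPM in Lhx6-type nuclei, but 6.97 CPM in Adarb2-type nuclei against 14.3 CPM in excitatory neurons. Sema3a was under 2-fold in 6 of 14 alternatives in CPM (1.74-fold at the lowest), among them those without set 1 (1.88-fold) or set 6 (1.93-fold), and Sema6a ranged from 3.01-fold to 7.89-fold.

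Dentate granule-like nuclei were higher in both class 5 ligands and CA1-like nuclei in the class 3 ligands Sema3a, Sema3d and Sema3e. Of 24 members, 5 were higher by 2-fold or more and 7 lower in the 2423 dentate granule-like than in the 3076 CA1-like nuclei, against 5.45% and 7.37% of the genes kept out of the clustering. The median log2 ratio was -0.04 over the members and 0.04 over those genes. Sema5a was 75.0-fold higher (65.5 to 86.3), 150-fold without barcode set 2 and 62.7-fold to 191-fold over all alternatives, and Sema5b was 8.32-fold higher (37.6 against 4.51 CPM). Of the receptors, Nrp2 was 3.48-fold higher (163 against 47.0 CPM) and Plxna4 2.18-fold (2.14 to 2.22), and the ligand Sema6d was 2.76-fold higher, from 1.65-fold under each nucleus's own marker score to 4.32-fold after thinning. Sema3e was 15.2-fold lower (13.6 to 17.0), Plxna1 7.34-fold (3.89 against 28.6 CPM), Sema4a 5.26-fold, Plxnd1 4.83-fold, Sema6c 4.29-fold, Sema3d 3.45-fold and Sema3a 2.19-fold lower. All 12 had this direction in 6 of 6 barcode sets except Sema3d, with 4 of 6, and Sema3d was 1.17-fold lower when unnamed clusters joined their best class, where Plxna4 was 1.99-fold higher. Sema3a was 1.79-fold lower after thinning, and Sema3e ranged from 9.32-fold to 17.3-fold lower.

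CA1-like and CA2/CA3-like nuclei were at least 2-fold apart in 6 members, with both neuropilins lower in CA1-like nuclei. Of 25 members, 2 were higher by 2-fold or more and 4 lower in CA1-like nuclei, where 4.41% and 2.92% of the genes kept out of the clustering passed these folds. Per nucleus the counts were 1 and 8, with no share of other genes computed on that scale. Nrp1 was 2.49-fold lower (299 against 743 CPM, 2.41 to 2.57), Nrp2 4.32-fold (47.0 against 203 CPM), Sema5a 11.5-fold (9.43 against 109 CPM, 9.96 to 13.4) and Sema5b 9.20-fold lower, in 6 of 6 sets each. Sema5a was 20.8-fold lower without barcode set 2. Sema3a was 2.73-fold higher (20.8 against 7.62 CPM). Plxnd1 was 39.8-fold higher (10.8 to 332), on 146 UMIs against 2, and from 12.3-fold under each nucleus's own marker score to 69.1-fold without set 1.

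The Lhx6-type and Adarb2-type classes were at least 2-fold apart in 8 members. The Adarb2-type side was cluster 16 alone, led by Adarb2 and Vip. The Hapln1-led inhibitory cluster of 241 nuclei was on neither side, and held 4244 CPM of the Lhx6-type and 3313 CPM of the Adarb2-type marker list. Between 720 Lhx6-type nuclei, the family of medial ganglionic eminence origin, and 349 Adarb2-type nuclei, of caudal origin, 1 of 18 members was at least 2-fold higher and 7 were at least 2-fold lower, against 3.94% and 2.64% of the genes kept out of the clustering. Sema3a was the higher one (43.8 against 6.97 CPM, 6.29-fold, 3.74 to 11.4). Sema5b was 11.3-fold lower (7.87 to 16.6), Sema3c 7.08-fold, Sema3e 6.83-fold, Sema5a 4.45-fold, Nrp2 2.79-fold, and Nrp1 and Sema6a 2.38-fold each. All 8 had the same direction in 4 of 4 barcode sets. When each nucleus was classed by its own marker score, 3 were lower rather than 7, and Nrp1, Nrp2, Sema3c and Sema5a were 1.08-fold, 1.38-fold, 1.71-fold and 1.83-fold lower. Under that score Sema3a was 2.55-fold higher, Sema5b 3.12-fold lower and Sema3e 3.34-fold lower, and Sema3e was 2.28-fold lower after thinning.

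**Figure D4:**
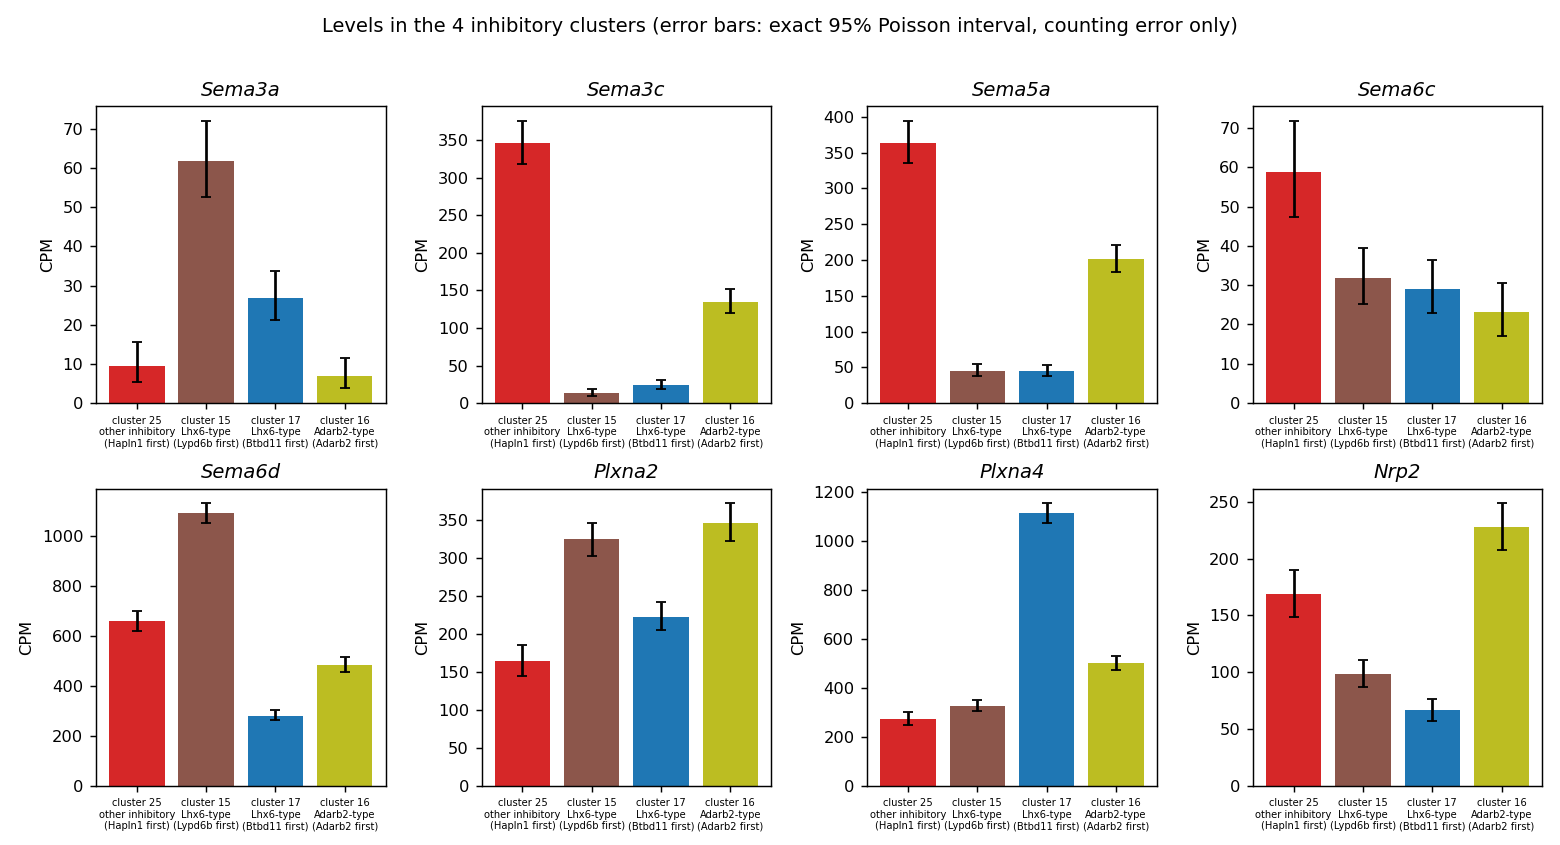
Level in CPM (vertical axis) of 8 members in the 4 inhibitory clusters (horizontal axis), with 95% Poisson intervals. Sema6d and Plxna4 are at 1091 and 326 CPM in cluster 15 and at 280 and 1114 CPM in cluster 17.

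Within the Lhx6-type class, cluster 15 (379 nuclei, with Sst, the gene of somatostatin, among its leading genes) and cluster 17 (341 nuclei, led by Btbd11) differed in opposite directions for the class 6 ligand Sema6d and the receptor Plxna4. Sema6d held 1091 CPM (1051 to 1132) in cluster 15, with sets from 703 to 1417 CPM, and 280 CPM (261 to 301) in cluster 17, with sets from 163 to 373 CPM. Plxna4 held 326 CPM (305 to 349) in cluster 15 and 1114 CPM (1075 to 1155) in cluster 17, and again no set of one reached the other (265 to 374 and 880 to 1368 CPM). Sema3a stood at 61.7 CPM in cluster 15 and 26.9 CPM in cluster 17, with sets from 49.5 to 75.3 and from 16.0 to 37.7 CPM.

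Levels also varied between clusters of excitatory neurons. Among those without a finer name, cluster 20 (293 nuclei, led by Vwc2l) held 356 CPM of Sema5b (330 to 384), with sets from 306 to 518 CPM, while cluster 6 held 7.65 CPM and cluster 19 held 3.64 CPM. Cluster 20 also held 282 CPM of Nrp2 (259 to 307) and cluster 19 held 16.8 CPM. Both subicular or cortical-like clusters split over the neuropilins: cluster 21 held 782 CPM of Nrp1 and 41.2 CPM of Nrp2, and cluster 12 held 292 CPM of Nrp1 and 216 CPM of Nrp2. Within the CA1-like class, Sema3e stood between 361 and 431 CPM in clusters 0, 3, 26 and 33, but at 32.7 CPM (23.9 to 43.6) in cluster 22 and 72.4 CPM (62.5 to 83.4) in cluster 27, and both are led by genes that include Dcn. Its receptor Plxnd1 was the reverse, 18.5 CPM (26 UMIs) in cluster 22 and 19.3 CPM (51 UMIs) in cluster 27 against 4.60 CPM in cluster 0 and 3.81 CPM in cluster 3. These values describe clusters of 1 pooled sample, and clusters 0 and 3 came from different barcode sets: sets 5 and 6 gave 579 and 830 of the 1426 nuclei of cluster 0.

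In the oligodendrocyte lineage, 7 of 13 members were at least 2-fold lower in oligodendrocyte-like than in precursor-like nuclei. Of these 13, in 2503 against 322 nuclei, 2 were higher by 2-fold or more and 7 lower, against 13.7% and 12.4% of the genes kept out of the clustering, and the median log2 ratio was -1.54 over the members and 0.18 over those genes. Sema5b was 56.8-fold lower (37.3 to 90.3), Sema3d 24.4-fold (19.3 to 31.1), Sema5a 11.2-fold (9.20 to 13.6), Sema3e 7.55-fold, Plxna2 7.14-fold, Plxna4 3.85-fold and Sema6d 2.90-fold lower. The higher members were Sema4d (4.16-fold, 3.03 to 5.86) and the receptor Plxnb3 (2.97-fold, 2.29 to 3.93). Each had its direction in 3 of 3 barcode sets except Plxna2, with 2 of 3. When each nucleus was classed by its own marker score, Plxna4 was 1.19-fold, Sema6d 1.73-fold, Sema5a 1.96-fold, Plxna2 2.38-fold, Sema3e 3.48-fold, Sema5b 5.86-fold and Sema3d 8.34-fold lower, and Plxnb3 4.50-fold higher.

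**Figure D5:**
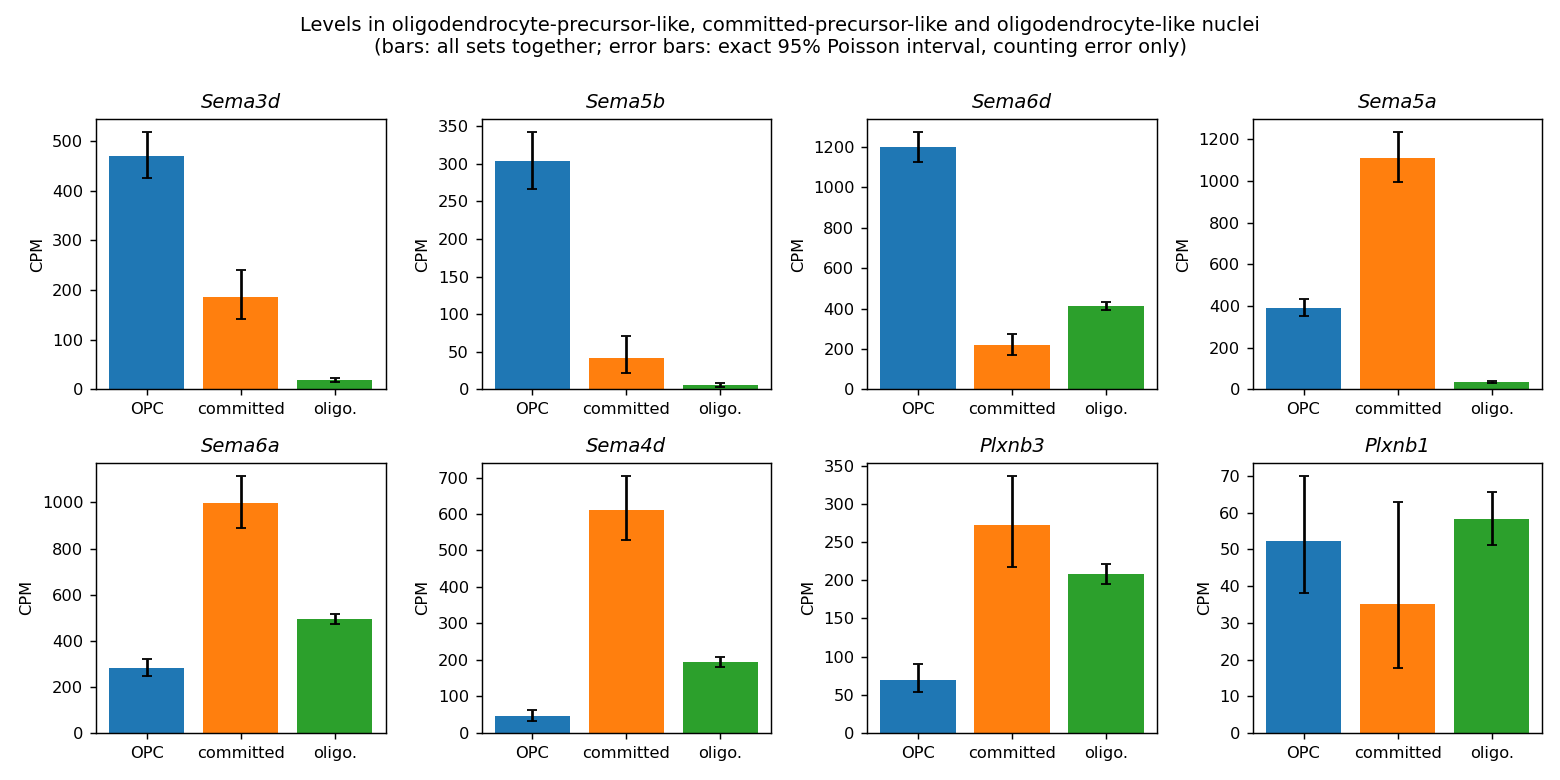
Level in CPM (vertical axis, bars from 0) of 8 members in precursor-like, committed precursor-like and oligodendrocyte-like nuclei, with 95% Poisson intervals. Sema5b and Sema3d are highest in precursor-like nuclei (303 and 470 CPM), while Sema5a (1111 CPM), Sema6a (999 CPM) and Sema4d (612 CPM) are highest in the committed precursor-like cluster.

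The committed precursor-like cluster, with 63 nuclei and a median of 4760 UMIs, was not between its neighbours for every member. Sema5a, Sema6a and Sema4d were higher there than in either neighbour, as given above, whereas the level of Plxnb3 (272 CPM, 217 to 337) lay within the range of the oligodendrocyte-like sets (159 to 325 CPM). This cluster also held 8479 CPM of Mbp, against 5447 CPM in oligodendrocyte-like and 326 CPM in precursor-like nuclei, and 64.0 CPM of the microglial transcript Cx3cr1, against 1289 CPM in microglia-like nuclei; the part of mixed nuclei in its levels was not tested. The 3 oligodendrocyte-like clusters differed less: Plxnb3 was 183 CPM in cluster 1, 242 CPM in cluster 7 and 289 CPM in cluster 8, and Sema6a 527, 315 and 600 CPM. Cluster 7 had 20 nuclei in only 1 barcode set.

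The pathway list of 53 further genes holds co-receptors, adhesion partners and intracellular effectors of plexins and neuropilins, and those with at least 100 UMIs over both sides were counted. In neurons against non-neuronal nuclei, 10 of 44 were higher by 2-fold or more and 15 lower, beside 19.9% and 15.8% of the genes kept out of the clustering. The actin-oxidising effector Mical2 (9.95-fold), Gipc2 (9.76-fold, 3.31 to 47.6, on 3 non-neuronal UMIs) and the collapsin response mediator Crmp1 (7.46-fold) were highest. Trem2 and its adaptor Tyrobp, which form a complex with Plxna1 in myeloid cells, were 56.3-fold lower each and the axonal adhesion gene Cntn2 18.6-fold lower. In excitatory against inhibitory neurons none of 40 was higher by 2-fold and 9 were lower, beside 9.20% and 6.73%, with Mical2 (1.99-fold), Rnd1 (1.62-fold, 0.941 to 3.04) and Gfra1 (1.43-fold) at the upper end. Hapln1, a link protein of perineuronal nets, was 75.0-fold lower, Gipc2 8.82-fold and the cofilin kinase gene Limk1 4.04-fold lower.

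In dentate granule-like against CA1-like nuclei 3 of 35 were higher and 5 lower, beside 5.45% and 7.37%, from Svil (5.73-fold), Gfra1 (5.21-fold) and Micall1 (3.10-fold) to Met (13.4-fold lower, 5.94 to 37.2), Cntn2 (6.43-fold lower) and L1cam (4.82-fold lower). Met encodes the hepatocyte growth factor receptor, which can pair with class B plexins. In CA1-like against CA2/CA3-like nuclei 4 of 36 were higher and none lower, beside 4.41% and 2.92%: Met (5.46-fold), the exchange factor Farp1 (4.15-fold) and the adhesion gene Chl1 (2.60-fold) led, and Limk1 (1.61-fold), Dpysl3 (1.46-fold) and Farp2 (1.42-fold) were the lowest. Between the Lhx6-type and Adarb2-type classes 3 of 34 were higher in Lhx6-type nuclei (Gfra1 10.7-fold, Ptk7 3.60-fold, Cntn2 2.53-fold) and 3 lower (Svil 3.90-fold, Gipc2 2.03-fold, Dpysl5 2.02-fold), beside 3.94% and 2.64%. In oligodendrocyte-like against precursor-like nuclei 6 of 25 were higher and 7 lower, beside 13.7% and 12.4%. Cntn2 (16.8-fold), the Rac effector kinase Pak1 (7.96-fold) and Micall1 (6.47-fold) were at the upper end. Dpysl3, a collapsin response mediator (88.7-fold lower, 48.4 to 181), and Chl1 and Nrcam, adhesion partners of neuropilins (22.6-fold and 20.1-fold lower), were at the lower end.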

How the data were processed

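Single-nucleus RNA of 10 wild-type mouse hippocampus samples of 1 group was deposited as a single count matrix. Per the file headers it holds whole-number UMI counts, and per the submitters' processing notes the authors used Cell Ranger 4.0.0 with mm10 (GRCm38); whether introns were counted is not given in the sources used here. All members, gene lists, markers and comparisons were chosen with earlier results of these data known.

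Barcodes were kept (15553) where they had 500 or more UMIs, 300 or more genes and a mitochondrial share below 5%, and Scrublet marked 306 (1.97%) as doublets, which were removed. In barcode sets 2, 5 and 7 it marked 0.177%, 0.495% and 0.300%, and is not taken to have worked there. The remaining 15247 nuclei were clustered without integration (scanpy 1.11.5, leidenalg 0.10.2, 30 components, 15 neighbours, resolution 1). The 2186 genes used were the 2000 most variable of 12275 randomly drawn genes, plus the markers that later named the clusters. The members, the pathway list and the genes not drawn were left out. The background was the 22635 unused genes, without markers and mitochondrial genes. It includes the members, the pathway list and the drawn genes that were not among the 2000. The members were not filtered by variability, so background shares may be low beside theirs, which was not tested. Clusters were named from 190 markers, 189 of them in the matrix, by a rule built in rounds while looking at the clusters. The 3 pathway genes that are also markers were left out. Cajal-Retzius-like nuclei entered neither side of the comparison of neurons with non-neuronal nuclei.

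Raw counts were summed per class and divided by the class total to give CPM, and ratios of sums have exact 95% intervals (scipy 1.17.1), as do the levels (Poisson). PCR, cell number and sample differences lie outside these intervals, and with 1 pooled sample no p-value was computed. Fold thresholds were 2-fold with at least 100 UMIs over both sides; barcode sets count where both sides hold at least 50 nuclei. Every member at least 2-fold apart is named, with the 3 highest and 3 lowest pathway genes. The ratio step was tested on simulated data. Alternatives covered doublets, the UMI minimum, the clustering, the naming, thinning to 1000 UMIs, scaling, thresholds and each barcode set left out.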

Additional observations from a re-analysis of the deposited data

Results flagged for a closer look

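The 8 unnamed clusters entered no class or comparison. Members that stood above their level in every named class with at least 100 nuclei are given here for 2 of these clusters. Cluster 38, with 40 nuclei, 31 of them from barcode set 1, is led by Ebf2, Ebf3, Postn and Sema3a itself. It was left unnamed because Reln, the first marker of its nearest class (Cajal-Retzius cells), was seen in under 5% of its nuclei. Nrp2 stood there at 994 CPM (867 to 1133, 223 UMIs). The highest named class with at least 100 nuclei, Adarb2-type interneuron-like, held 228 CPM, and the smaller pericyte- or smooth muscle-like and mossy cell-like classes held more. Sema3a stood at 864 CPM (747 to 995, 194 UMIs) against 43.8 CPM in Lhx6-type nuclei, and Sema6d at 1969 CPM (1790 to 2162, 442 UMIs) against 1199 CPM in oligodendrocyte precursor-like nuclei. Cluster 39, with 36 nuclei and a median of 666 UMIs, carries markers of both excitatory and inhibitory neurons. Sema3e stood there at 584 CPM (346 to 923) on 18 UMIs, against 317 CPM in CA1-like nuclei. The small mossy cell-like class, described above, held more Sema3e than this cluster. None of these values has a replicate, and the part of free RNA or mixed nuclei in them was not tested.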

How the results depend on the processing

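The 64 named ratios were recomputed under 958 alternatives in all: 753 moved by less than the counting error, 199 moved by more with the same direction, and 6 reversed. The cause was not tested. On the scale of mean UMIs per nucleus Sema4c and Sema4d turned to 0.36 and 0.47 (log2, neurons against non-neuronal nuclei). Sema3f in excitatory against inhibitory neurons (log2 of 1.40) turned to -0.87 with doublets kept, -0.55 at resolution 2, -1.46 with each nucleus classed by its own marker score and -0.94 with unnamed clusters in their best class. In CPM, 71 of the alternative values differed by over 1.5 times from their ratio, and 17 of the 64 ratios were under 2-fold in at least 1 alternative.

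Counts of members at least 2-fold apart moved as follows. Shares of other genes were computed only under the main setting, so the counts below have none beside them. They show how the member counts depend on the setting and are not read as results about the members. With each nucleus's own marker score, 3 rather than 5 were higher in excitatory neurons, and 2 were higher and 3 lower in Lhx6-type nuclei. After thinning, 3 were higher in Lhx6-type nuclei. Per nucleus, 23 were higher and 3 lower in neurons, 1 higher and 8 lower in CA1-like than in CA2/CA3-like nuclei, and 1 was led by 1 class. With at least 30 UMIs, 2 were higher in Lhx6-type nuclei. With at least 1 UMI, 5 were higher in CA1-like than CA2/CA3-like nuclei, 3 in Lhx6-type nuclei, and 20 lower in oligodendrocyte-like nuclei. Those 20 include members on very few UMIs, such as Sema3b on 2 oligodendrocyte-like against 1 precursor-like UMI. At 1.5-fold, 10 were higher in excitatory neurons, and 4 higher and 7 lower in CA1-like than CA2/CA3-like nuclei. At 3-fold, 3 were higher in dentate granule-like nuclei, 1 in CA1-like nuclei against CA2/CA3-like ones, 4 lower in Lhx6-type nuclei and 1 higher in oligodendrocyte-like nuclei. Leaving out each barcode set in turn gave 3 to 7 members led by 1 class. No paired analysis was possible because the labels give 1 group and no barcode set is tied to a sample.

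With 1 pooled matrix the spread between animals cannot be seen, and what a barcode set holds is not known. Astrocyte-like, committed precursor-like, mossy cell-like and pericyte- or smooth muscle-like nuclei are few, and members under 30 UMIs in a class are weakly placed. Low levels beside far higher ones in another class could not be told apart from free RNA or mixed nuclei at this depth.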
